A study of Mus musculus with 32 samples.

Results

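A set of 93 genes of mouse muscle that were almost silent in wild-type (WT) tissue and present in tissue with an inducible DUX4 gene was described. A gene entered the set when it averaged under 0.2 counts per 1000000 counts of its library (CPM) over the 9 WT whole-muscle libraries and at least 1 CPM in the DUX4 libraries of both 16 and 2 weeks. Of 43035 genes in the tables, 26377 were under the WT limit, and 197 of these reached 1 CPM in DUX4 muscle at 16 weeks and 138 did so at 2 weeks. In all, 99 genes met the limits together, and 6 of these were set aside by name (Areg, Rspo2, Serpinb6c, Agtr2, Wfdc3 and Iltifb). Y-linked genes and several large families were also to be left out, but none of them was among the 99. The difference between DUX4 and WT whole muscle therefore chose the genes, and it is given below as a description without a test. Levels at 16 against 2 weeks and levels in sorted cells were not used to choose them, except that each gene had to reach 1 CPM at both times. The spread between libraries was not used directly. The limits were set on group means, however, so a gene could enter through 1 high library.

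DUX4 is a double-homeobox transcription factor that is normally active in the early embryo and the germ line. Its misexpression in skeletal muscle underlies facioscapulohumeral dystrophy, and in muscle cells it is known to switch on genes that belong to other tissues and stages. The mouse has its own double-homeobox genes, Dux and the Duxbl family, and human DUX4 is known to act on a partly different set of genes in mouse cells than Dux does.

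The study compared mice labelled with an inducible DUX4 gene with mice labelled WT, and the labels give doxycycline chow to both. Whole muscle gave 4 DUX4 libraries at 16 weeks (IDUX.16Weeks), 5 DUX4 libraries at 2 weeks (IDUX.2Weeks), 4 WT libraries at 16 weeks (WT.16Weeks) and 5 WT libraries at 2 weeks (WT.2Weeks). Cells sorted from hind limb were CD31+ endothelial cells (4 CD31DUX and 3 CD31WT libraries) and PDGFRa+ fibro-adipogenic progenitors, or FAPs (4 PDGDUX and 3 PDGWT libraries), the connective tissue cells that lie between fibres. The labels do not name the promoter that drives DUX4, the muscles, the age or sex of the mice, the time at which cells were sorted or whether each library is a separate animal, so p-values measure the spread between libraries. The level of the DUX4 transgene was not analysed here. In bulk RNA, fewer cells of a type and less RNA per cell cannot be told apart.

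Library totals were 6071276 (IDUX.16Weeks replicate 2) to 20666816 counts, so that 3 counts, used below as the floor for a count of 0, made 0.145 to 0.494 CPM. Myofibre markers summed to 56708 to 82102 CPM in DUX4 whole muscle and to 83938 to 101643 CPM in WT whole muscle. By edgeR's quasi-likelihood test 4 of the 8 myofibre markers at 16 weeks and 6 at 2 weeks were lower in DUX4 muscle, and 6 of 8 markers of regenerating fibres were higher at each time. Their part in the level of the set was not tested. Endothelial markers (Pecam1, Cdh5 and 6 more) summed to 3457 to 5370 CPM in the CD31 libraries, and FAP markers (Pdgfra, Dcn and 6 more) to 43807 to 55725 CPM in the PDGFRa libraries. The CD31 libraries also held FAP markers, at 12897 to 15249 CPM in CD31DUX and 4279 to 6719 CPM in CD31WT.

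Of the 93 genes, 80 are annotated as protein coding, 5 as lincRNA, 4 as antisense, 1 as a processed transcript and 2 as pseudogenes, and 1 is given by its Ensembl identifier alone. RefSeq promoters were matched for 67 of the genes, as the 300 bases from 250 before to 50 after a RefSeq start on GRCm38.p6, and were searched on both strands for 4 short patterns. The first was a looser form of the known DUX4 binding motif, with any letter allowed at the variable places in its middle. This looser pattern occurred in 1 of the 67 (1.49%), Slc35f2, against 1.2% of 27025 genes with a promoter. Of the 10300 of these that reached 1 CPM in DUX4 muscle, 0.65% held it. Whether the Slc35f2 match also meets the motif itself was not tested. The homeodomain core TAATTA occurred in 2 of the 67 (2.99%), Gcnt4 and Pls1, against 6.12% of all and 3.16% of those at 1 CPM. The letters TATAAA, at any place in the window, occurred in 6 (8.96%), against 15.7% of all and 9.17% of those at 1 CPM. In Pth, among these 6, they lay at -249 to -244 from the start, so the match is not called a TATA box. Gm2663 held 2 matches, the first at -42 to -37. In Epgn the letters lay at -86 to -81, in Rab3b at -120 to -115, in Hgd at -139 to -134 and in Rgs9 at -195 to -190. Whether any of these acts as a TATA box was not tested. The E-box CANNTG, which muscle factors also bind, occurred in 58 (86.6%), against 75% of all and 68.1% of those at 1 CPM. A match describes the letters of this window and is not a measured binding site. The lines below show 1 promoter with each of the first 3 patterns, in capitals, and those of the abundant genes Entpd3 and Lpar3, which hold none of the 3.
Slc35f2 (chr9:53771285-53771584, + strand): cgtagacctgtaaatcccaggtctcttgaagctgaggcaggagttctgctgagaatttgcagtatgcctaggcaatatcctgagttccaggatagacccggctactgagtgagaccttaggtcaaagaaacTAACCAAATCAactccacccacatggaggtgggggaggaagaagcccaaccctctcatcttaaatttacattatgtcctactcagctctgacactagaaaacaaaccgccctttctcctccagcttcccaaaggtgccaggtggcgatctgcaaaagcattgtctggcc
Pls1 (chr9:95845230-95845529, - strand): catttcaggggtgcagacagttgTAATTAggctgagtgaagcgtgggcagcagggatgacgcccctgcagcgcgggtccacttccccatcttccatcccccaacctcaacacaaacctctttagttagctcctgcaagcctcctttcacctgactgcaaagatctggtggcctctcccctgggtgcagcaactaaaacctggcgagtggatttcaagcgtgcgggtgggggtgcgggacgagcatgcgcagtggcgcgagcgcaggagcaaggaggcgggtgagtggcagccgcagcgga
Pth (chr7:113388524-113388823, - strand): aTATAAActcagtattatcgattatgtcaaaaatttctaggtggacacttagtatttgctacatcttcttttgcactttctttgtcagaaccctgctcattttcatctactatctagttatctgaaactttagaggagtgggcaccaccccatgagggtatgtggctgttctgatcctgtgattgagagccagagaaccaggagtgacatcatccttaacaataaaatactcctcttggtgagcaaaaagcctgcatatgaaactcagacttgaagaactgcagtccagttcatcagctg
Entpd3 (chr9:120539568-120539867, + strand): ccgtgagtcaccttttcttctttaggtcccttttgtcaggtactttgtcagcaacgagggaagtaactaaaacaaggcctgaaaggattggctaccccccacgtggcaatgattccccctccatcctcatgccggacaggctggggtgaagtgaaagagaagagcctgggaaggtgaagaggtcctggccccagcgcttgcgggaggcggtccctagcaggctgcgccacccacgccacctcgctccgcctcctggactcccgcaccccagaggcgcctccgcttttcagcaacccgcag
Lpar3 (chr3:146220711-146221010, + strand): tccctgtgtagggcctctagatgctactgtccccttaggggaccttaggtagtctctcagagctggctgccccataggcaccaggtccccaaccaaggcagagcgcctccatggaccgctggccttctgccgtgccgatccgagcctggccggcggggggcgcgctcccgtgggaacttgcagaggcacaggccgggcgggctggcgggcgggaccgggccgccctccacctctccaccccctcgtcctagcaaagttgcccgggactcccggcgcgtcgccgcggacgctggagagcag

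The genes of the set were low-abundance transcripts. Their mean levels had a median of 3.23 CPM in IDUX.16Weeks and 2.59 CPM in IDUX.2Weeks, and 12 and 8 of them reached 10 CPM in these groups. Summed over the set, the level was 390 to 593 CPM in IDUX.16Weeks, 175 to 962 CPM in IDUX.2Weeks and 5.34 to 8.68 CPM in the WT libraries. No WT library held a single one of the 93 at 1 CPM, 7 genes had no count in any of the 9 WT libraries, and 86 had a count in each of the 9 DUX4 libraries. At 16 weeks the lowest DUX4 library lay above the highest WT library for 92 of the 93, where 28.3% of all genes that averaged 0.5 CPM or more over the libraries compared did so. At 2 weeks this held for 73 of the 93, against 16.1% of such genes. The set was chosen on this contrast, so the counts only describe how far it separated library by library. By edgeR's quasi-likelihood test with Benjamini-Hochberg adjustment 92 of the set at 16 weeks and all 93 at 2 weeks were called higher in DUX4 muscle, from which nothing is read for the same reason. Of all 15396 genes tested, 26.6% were called at 16 weeks (14.1% higher, 12.5% lower) and 17.7% at 2 weeks (11.2% higher, 6.47% lower).

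**Figure D1:**
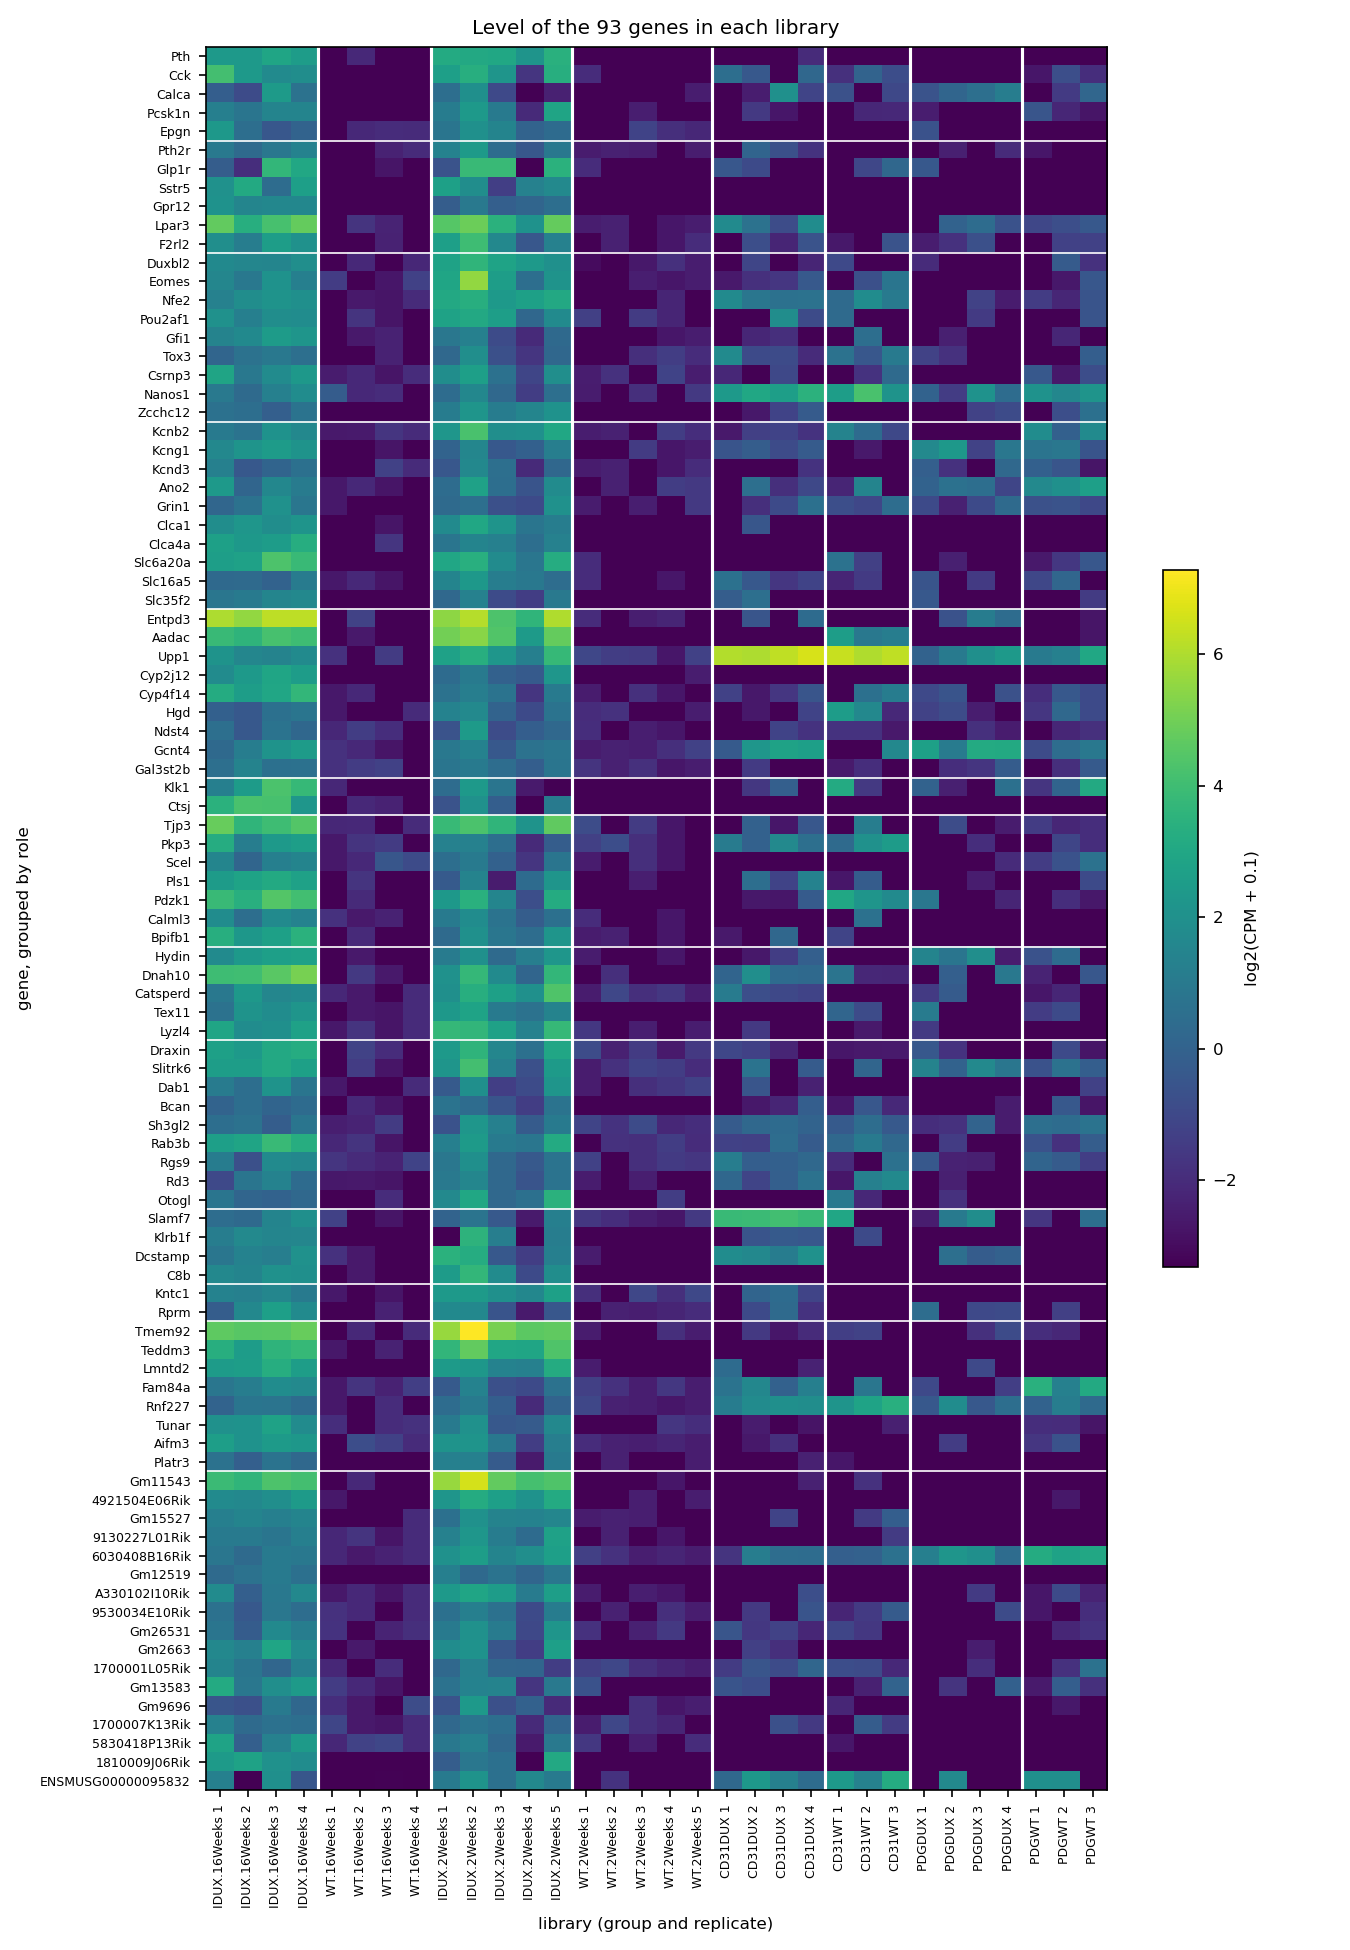
Heat map of log2(CPM + 0.1) for the 93 genes (rows, in groups by role divided by white lines) in 32 libraries (columns, with each DUX4 group left of its WT group). The WT whole-muscle columns are dark throughout, replicate 4 of IDUX.2Weeks is dimmer than its neighbours, and most rows are dark in the sorted cells.

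Just inside the WT limit lay Rgs9 at 0.195 CPM, Upp1 at 0.193 and Sh3gl2 at 0.192 in the mean of 9 WT libraries, and just outside it lay 2600006K01Rik at 0.203, Sidt1 at 0.206 and Nol4 at 0.211. At the 16-week limit Gm9696 had 1.01 CPM, Bcan 1.11 and Hgd 1.13 inside, and Bnipl had 0.951 CPM, Fbxw10 0.946 and Spaca3 0.942 outside. At the 2-week limit Rnf227 had 1.01 CPM, 1700007K13Rik 1.03 and Bcan 1.04 inside, and Dynlrb2 had 0.999 CPM, Cemip 0.997 and Gm14635 0.921 outside.

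The most abundant members included Entpd3, which encodes an enzyme that splits nucleotides outside the cell. Entpd3 (ENSMUSG00000041608, chromosome 9, 120539818 to 120568327) had 63.9, 47.4, 74.4 and 74.5 CPM in IDUX.16Weeks, 44.3, 68.7, 19.7, 12.1 and 63.9 CPM in IDUX.2Weeks and 0 to 0.332 CPM in the WT libraries. All 9 DUX4 libraries were far above all 9 WT libraries, and replicates 3 and 4 of the 2-week group were the lowest of the 9. Tmem92 (ENSMUSG00000075610, chromosome 11, 94777217 to 94782703) had 25.2, 22.7, 23.5 and 27.7 CPM in IDUX.16Weeks and 49.4, 156, 34, 24.7 and 25.7 CPM in IDUX.2Weeks, with 0 to 0.169 CPM in WT muscle. The 16-week libraries were almost level, whereas replicate 2 held 53.8% of the 2-week sum. Aadac, a deacetylase and esterase known from liver and gut (chromosome 3, 60025717 to 60040160), had 14.6, 11.9, 18.2 and 15.8 CPM in IDUX.16Weeks and 32.8, 42.4, 20.8, 5.41 and 27 CPM in IDUX.2Weeks. A single WT library, of 16 weeks, had a count of Aadac, and its 2-week level was at least 109-fold higher than a floor of 3 counts per WT.2Weeks library. Replicate 4 was again the lowest of the early libraries.

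Teddm3 had 9.86, 5.76, 11.7 and 13.8 CPM in IDUX.16Weeks and 12.7, 26.3, 7.63, 7.34 and 20.6 CPM in IDUX.2Weeks, and 0 to 0.103 CPM in WT muscle. No WT.2Weeks library held a count of it, which makes the 2-week level at least 63.6-fold higher, and replicates 3 and 4 were again the lowest at 2 weeks. Per kilobase of annotated exon, the mean level was highest in the set for Gm11543, at 43.3 CPM per kb in IDUX.16Weeks and 114 in IDUX.2Weeks. In IDUX.16Weeks Entpd3 followed with 17.3 CPM per kb, Tmem92 with 11.3 and Aadac with 10.1. In IDUX.2Weeks the order was another, with Tmem92 at 26.5 CPM per kb, Aadac at 17.1, Pth at 11.3 and Entpd3 at 11.1.

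**Figure D2:**
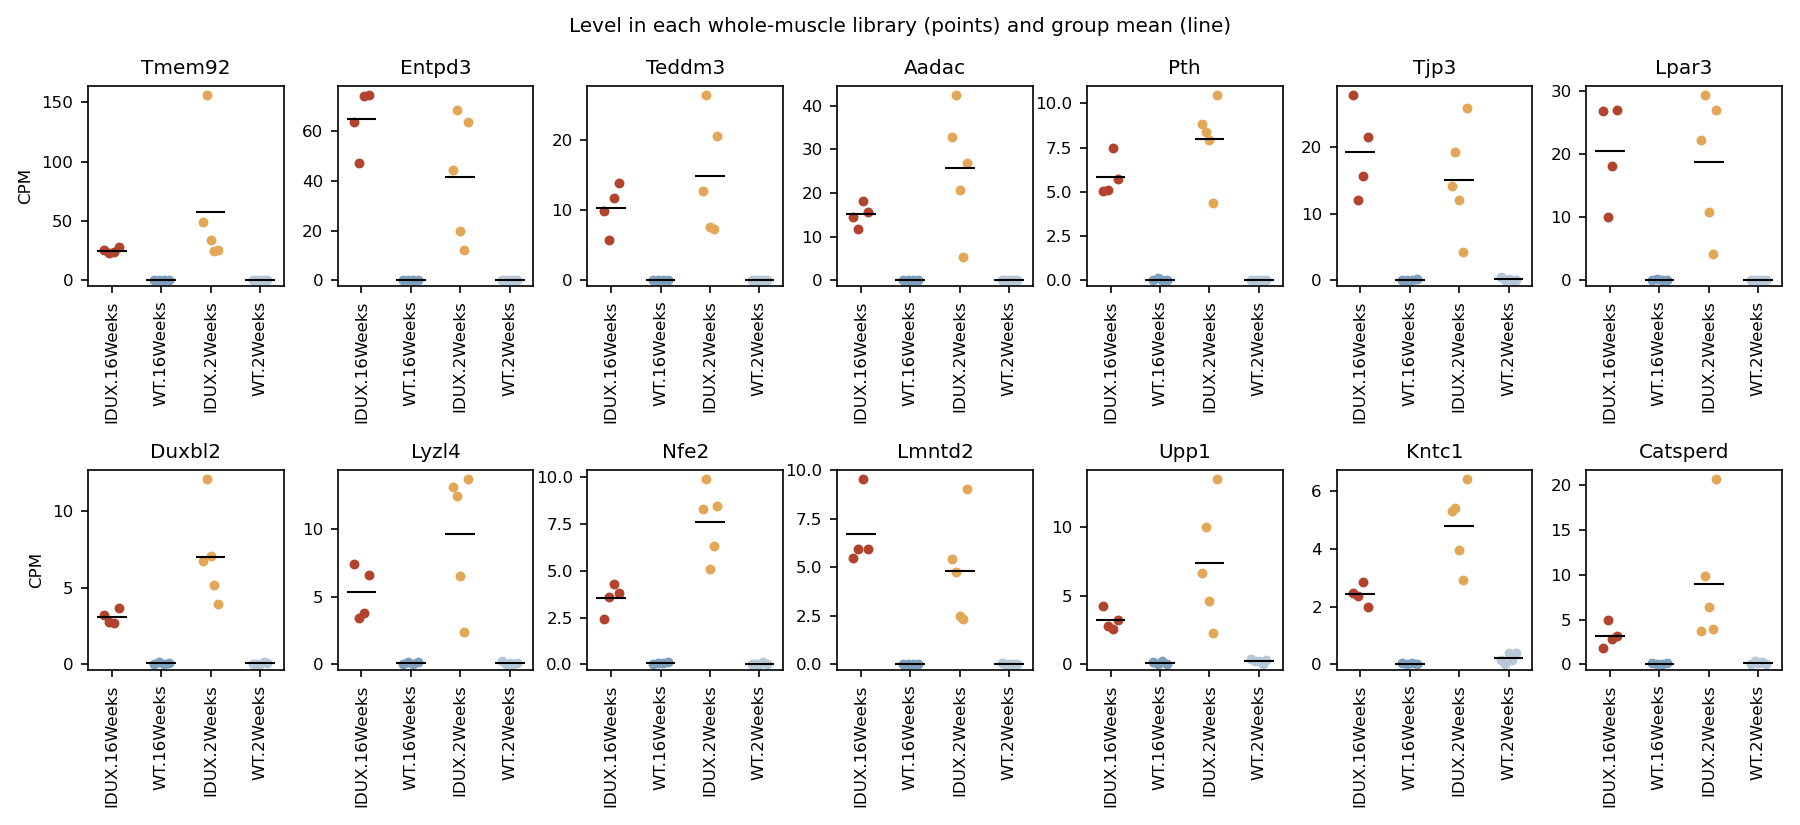
CPM of the 14 named genes with the highest lowest-library level over the DUX4 libraries. Points are whole-muscle libraries, lines are group means, and each panel runs IDUX.16Weeks, WT.16Weeks, IDUX.2Weeks, WT.2Weeks. Each DUX4 library lies above each WT library in all 14 panels.

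Genes of hormones, peptides and growth factors numbered 5. These and the other role groups below were formed after the values had been seen. Parathyroid hormone (Pth), the parathyroid's calcium-raising hormone, had 5.04, 5.11, 7.45 and 5.75 CPM in IDUX.16Weeks and 8.84, 8.36, 7.92, 4.38 and 10.5 CPM in IDUX.2Weeks, against 0 to 0.133 CPM in WT. All 9 DUX4 libraries lay above all 9 WT libraries, and no WT.2Weeks library held a count. Cholecystokinin (Cck), a gut and brain peptide, had 17, 5.27, 3.27 and 3.53 CPM in IDUX.16Weeks and 6.18, 9.9, 4.58, 0.214 and 9.9 CPM in IDUX.2Weeks. Replicate 4 of the 2-week group, at 0.214 CPM, was close to the highest of the WT libraries, which had 0 to 0.151 CPM. Calca, which encodes calcitonin and calcitonin gene-related peptide, was uneven, with 0.8, 0.442, 5.45 and 1.51 CPM in IDUX.16Weeks and 1.31, 3.84, 0.405, 0 and 0.0938 CPM in IDUX.2Weeks. Its 2-week libraries overlapped the WT libraries, which had 0 to 0.0787 CPM. The other two were Pcsk1n, a secreted inhibitor of prohormone cleavage, and Epgn, a ligand of the epidermal growth factor receptor, with means of 2.31 ± 0.468 and 1.94 ± 1.97 CPM in IDUX.16Weeks (SD, n = 4).

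Receptor genes numbered 6, and each is known to be a G-protein-coupled receptor. Lpar3, a receptor for lysophosphatidic acid, was the most abundant per kilobase, at 8.32 CPM per kb at 16 weeks. Its level was 26.9, 10.05, 18.1 and 27 CPM in IDUX.16Weeks and 22.3, 29.4, 10.8, 4.13 and 27 CPM in IDUX.2Weeks, against 0 to 0.199 CPM in WT. The incretin receptor Glp1r, known from pancreatic beta cells, had 0.784, 0.165, 13 and 8.12 CPM in IDUX.16Weeks and 0.547, 14.4, 14.6, 0 and 10.9 CPM in IDUX.2Weeks. Glp1r was thus above 8 CPM in 5 of the 9 DUX4 libraries and below 1 CPM in the other 4. The somatostatin receptor Sstr5 had 4.03, 8.56, 1.25 and 6.22 CPM in IDUX.16Weeks and 6.49, 3.61, 0.291, 2.43 and 3.06 CPM in IDUX.2Weeks, and no count in any WT library. That placed Sstr5 at least 20.4-fold higher at 16 weeks and at least 13.5-fold higher at 2 weeks than the floor. Gpr12, an orphan receptor with no WT count, Pth2r, a receptor of the parathyroid hormone receptor family, and F2rl2, a protease-activated receptor, averaged 3.19 ± 0.665, 1.82 ± 0.565 and 3.94 ± 1.55 CPM in IDUX.16Weeks (SD, n = 4).

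Gene regulators numbered 9. Duxbl2, a mouse double-homeobox gene, had 3.22, 2.78, 2.72 and 3.65 CPM in IDUX.16Weeks and 6.73, 12, 7.04, 5.18 and 3.95 CPM in IDUX.2Weeks, against 0 to 0.178 CPM in WT. Its transcript is 100% identical to that of Duxbl3 and 99.5% identical to that of Duxbl1 along the aligned part, so the counting may have split reads among the copies. Duxbl1 averaged 1.75 CPM in IDUX.16Weeks and 2.05 CPM in IDUX.2Weeks, against 0.170 CPM in WT.16Weeks and 0.312 CPM in WT.2Weeks. Eomes, a T-box factor of the early embryo and of immune cells, had 2.81, 1.82, 4.16 and 2.27 CPM in IDUX.16Weeks and 7.35, 46.6, 5.82, 1.31 and 4.27 CPM in IDUX.2Weeks. A single library, replicate 2, carried most of its 2-week level. Nfe2, a factor of platelet and red cell precursors, had 2.41, 3.62, 4.32 and 3.8 CPM in IDUX.16Weeks and 8.29, 9.9, 5.09, 6.34 and 8.46 CPM in IDUX.2Weeks, so the 2-week libraries were all above the 16-week ones. The others were Pou2af1, a B cell coactivator, Gfi1, a repressor of blood cell development, Tox3, Csrnp3, the RNA-binding germ cell factor Nanos1, and Zcchc12, and their 16-week means ran from 1.28 to 4.31 CPM.

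Enzymes of metabolism and glycan synthesis numbered 9, Entpd3 and Aadac included. Upp1, a uridine phosphorylase, had 4.26, 2.8, 2.58 and 3.27 CPM in IDUX.16Weeks and 6.66, 10.1, 4.65, 2.28 and 13.5 CPM in IDUX.2Weeks, against 0 to 0.378 CPM in WT. The cytochrome P450 genes Cyp4f14, a fatty acid hydroxylase known from liver, and Cyp2j12 averaged 8.86 ± 2.88 and 5.45 ± 1.7 CPM in IDUX.16Weeks (SD, n = 4). They averaged 1.49 ± 0.768 and 1.9 ± 1.64 CPM in IDUX.2Weeks (SD, n = 5). Hgd, an enzyme of tyrosine breakdown, and the glycan enzymes Ndst4, Gcnt4 and Gal3st2b stayed lower, with 16-week means of 1.13 to 3.25 CPM. Gal3st2b is 99.6% identical to Gal3st2 along the aligned transcript, and its level is uncertain to that extent.

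Epithelial genes numbered 7, and each had a higher mean at 16 than at 2 weeks. Tjp3, a tight junction scaffold, had 27.8, 12, 15.6 and 21.5 CPM in IDUX.16Weeks and 14.2, 19.2, 12.1, 4.27 and 25.9 CPM in IDUX.2Weeks, against 0 to 0.453 CPM in WT. Pdzk1, a scaffold for transporters of kidney and gut, had 14.7, 10.3, 21.7 and 16.8 CPM in IDUX.16Weeks and 4.94, 10.5, 2.74, 0.491 and 9.13 CPM in IDUX.2Weeks. Replicate 4 was the lowest at 2 weeks for both genes, and all DUX4 libraries exceeded all WT libraries. Of Pdzk1's annotated exon bases 37.5% lie opposite exons of Gpr89, which averaged 22.2 CPM in IDUX.16Weeks and 27.3 CPM in WT.16Weeks, and reads there cannot be told apart without strand. Pkp3, a desmosome plaque protein, Pls1, a bundler of microvillus actin, Bpifb1, a secreted airway protein, Calml3 and Scel, both of stratified epithelia, had 16-week means of 2.17 to 8.02 CPM.

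The proteases were Klk1, the tissue kallikrein of kidney and salivary gland, and Ctsj, a cathepsin of the rodent placenta. Klk1 had 2.31, 5.61, 19.2 and 13.7 CPM in IDUX.16Weeks and 1.24, 5.18, 1.64, 0.0712 and 0 CPM in IDUX.2Weeks. Ctsj had 10.9, 18.6, 18.3 and 4.69 CPM in IDUX.16Weeks and 0.547, 4.08, 0.799, 0 and 1.92 CPM in IDUX.2Weeks. No WT.2Weeks library held a count of either, and replicate 4 of IDUX.2Weeks was also at or near 0 for both. The other WT libraries had at most 0.124 CPM of Klk1 and 0.133 CPM of Ctsj. Klk1 is 94.4% identical to Klk1b5 along the aligned transcript.

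Channels, their regulators and transporters numbered 10. The potassium channel subunits Kcnb2, Kcng1 and Kcnd3 averaged 2.65 ± 1.17, 4.31 ± 1.07 and 1.35 ± 0.737 CPM in IDUX.16Weeks (SD, n = 4). The neighbours Clca1 and Clca4a, regulators of chloride channels in mucus-forming epithelium, averaged 4.05 ± 0.559 and 6.68 ± 2.03 CPM in IDUX.16Weeks (SD, n = 4). Clca4a is 95.5% identical to Clca4b along the aligned transcript. Slc6a20a, a carrier of imino acids in kidney and gut, had 6.09, 6.53, 19.8 and 14.3 CPM in IDUX.16Weeks and 7.66, 10.2, 3.4, 1.71 and 9.25 CPM in IDUX.2Weeks, with a count in 1 WT library. Slc35f2, whose promoter is printed above, had 1.68, 1.98, 2.72 and 3 CPM in IDUX.16Weeks and 1.09, 2.46, 0.436, 0.285 and 1.85 CPM in IDUX.2Weeks, and no count in any WT library. Slc35f2 was at least 9.55-fold higher than the floor at 16 weeks and at least 5.22-fold higher at 2 weeks. The other members of the group were Slc16a5, a carrier of the monocarboxylate family, Ano2, a calcium-activated chloride channel, and Grin1, a subunit of the NMDA glutamate receptor, which had 16-week means of 1.31 to 2.75 CPM.

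Cilium and germ cell genes numbered 5. Dnah10, a dynein heavy chain of motile cilia, had 16, 16.5, 23.8 and 34.6 CPM in IDUX.16Weeks and 3.98, 13.1, 3.28, 1 and 12.7 CPM in IDUX.2Weeks, against 0 to 0.241 CPM in WT. Hydin, a ciliary protein, averaged 5.32 ± 1.48 CPM in IDUX.16Weeks (SD, n = 4) and 2.79 ± 1.43 CPM in IDUX.2Weeks (SD, n = 5). Catsperd, a subunit of the sperm calcium channel, had 1.79, 4.94, 2.78 and 3.22 CPM in IDUX.16Weeks and 3.75, 9.9, 6.4, 3.92 and 20.6 CPM in IDUX.2Weeks. Lyzl4, a lysozyme-like protein of sperm, had 7.45, 3.46, 3.83 and 6.64 CPM in IDUX.16Weeks and 13.1, 12.4, 6.55, 2.42 and 13.7 CPM in IDUX.2Weeks. Both sperm genes were lower in mean at 16 weeks, and Dnah10 was higher. Tex11, a meiosis gene, averaged 3.47 ± 1.38 CPM in IDUX.16Weeks (SD, n = 4).

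Nerve cell and sense organ genes numbered 9, among them Draxin, an axon guidance protein, Slitrk6, a protein of the inner ear and retina, and Rab3b, a regulator of vesicle release. The others were Rd3, a retinal protein, Rgs9, a brake on G-protein signals in retina and brain, Otogl, an inner ear protein, Sh3gl2, a protein of synaptic vesicle recycling, Dab1, an adaptor in reelin signalling, and Bcan, a brain matrix proteoglycan. Slitrk6 had 5.94, 5.93, 8.42 and 6.38 CPM in IDUX.16Weeks and 4.54, 17.4, 2.33, 0.499 and 5.33 CPM in IDUX.2Weeks, and its 16-week libraries were much more alike than its 2-week libraries. The 9 genes had means of 1.11 to 9.35 CPM at 16 weeks and 1.04 to 6.02 CPM at 2 weeks. Blood and immune genes numbered 4, and Dcstamp, a membrane protein needed for the fusion of osteoclast precursors, had 1.68, 2.47, 2.23 and 4.01 CPM in IDUX.16Weeks and 10.7, 9.36, 0.654, 0.285 and 2.28 CPM in IDUX.2Weeks. Klrb1f, a natural killer cell receptor gene, had no count in any WT library and none in replicates 1 and 4 of IDUX.2Weeks, which had 0, 11.6, 2.23, 0 and 2.13 CPM. The complement gene C8b and the immune cell receptor gene Slamf7 were the other two. Kntc1, a kinetochore protein, had 2.48, 2.37, 2.85 and 1.97 CPM in IDUX.16Weeks and 5.3, 5.4, 3.94, 2.92 and 6.41 CPM in IDUX.2Weeks, and Rprm, a cell cycle inhibitor, averaged 3.3 ± 2.22 CPM in IDUX.16Weeks (SD, n = 4).

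A further 8 named genes were not classed by role, namely Tmem92, Teddm3, Lmntd2, Rnf227, Aifm3, Fam84a and the non-coding Tunar and Platr3. Lmntd2 had 5.49, 5.93, 9.54 and 5.96 CPM in IDUX.16Weeks and 5.44, 4.74, 2.47, 2.35 and 9.04 CPM in IDUX.2Weeks, all above the WT libraries at 0 to 0.0756 CPM. The last 17 members were predicted genes, clones or unnamed, and their means had a median of 1.98 CPM at 16 weeks and 2.49 CPM at 2 weeks, where they ran from 1.03 to 42.3 CPM. Some members lie side by side, and 7 pairs were within 250 kb of each other. Tmem92 and Gm11543 are 45.5 kb apart on chromosome 11, and Gm11543, a pseudogene, is 92.4% identical to Tmem92 over 81.6% of its length. Gm11543 had 15, 12, 19.6 and 17.4 CPM in IDUX.16Weeks and 49.4, 97.4, 26.7, 17.8 and 20.3 CPM in IDUX.2Weeks, with the highest value in the same library as Tmem92. 1810009J06Rik and Gm2663, 27.4 kb apart on chromosome 6, are 99.4% identical, and the division of reads between them is uncertain. Other pairs were Clca4a and Clca1 (28.8 kb), Dab1 and C8b (21.5 kb), Gm9696 and Aadac (52.1 kb), Cck and Lyzl4 (82.1 kb) and Pkp3 and Lmntd2 (119 kb). Between Gm9696 and Aadac lies Aadacl2, which was at or near 0. Between Pkp3 and Lmntd2 lie 5 coding genes, of which Hras and Rnh1 were plainly present in WT muscle, so the silent genes were not a continuous stretch there. The antisense members 5830418P13Rik, Gm13583, 9530034E10Rik and Gm26531 are uncertain, since no source states that counting used strand. Gm13583 lies across 299 exon bases of Pla2r1, which averaged 14.5 CPM in IDUX.16Weeks and 3.41 CPM in WT.16Weeks.

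The set was higher or lower as a block in single DUX4 libraries, most of all at 2 weeks. Replicate 2 of IDUX.2Weeks was above the mean of the group's other libraries for 89 of the 93 genes, with a median ratio of 2.05, and it held all 93 at 1 CPM or more. Replicate 4 was below the mean of the others for 92 of the 93, with a median ratio of 0.240, and it held 39 at 1 CPM or more. Over 14049 genes of at least 1 CPM the same ratios had medians of 1.18 in replicate 2 and 0.767 in replicate 4. Replicates 1, 3 and 5 lay between, with medians of 0.887, 0.553 and 1.21 and with 79, 67 and 85 genes at 1 CPM. Because the limits used the group mean, genes could enter through a high value in replicate 2, and without it the limits gave 76 genes. These counts and ratios are thus partly set by the choice of the genes and only describe the set. The DUX4-responsive gene Wfdc3, which is not in the set, had 74.4, 117, 47.2, 16.3 and 118 CPM in the 5 libraries. Wfdc3 was thus also lowest in replicate 4, and as high in replicate 5 as in replicate 2. Totals of the 5 libraries were 12787574 to 14065733 counts, and replicate 4 had 14036924. Myofibre markers summed to 82102 CPM in replicate 4 and to 58418 to 68523 CPM in the other 4, and the part of this in the result was not tested.

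**Figure D3:**
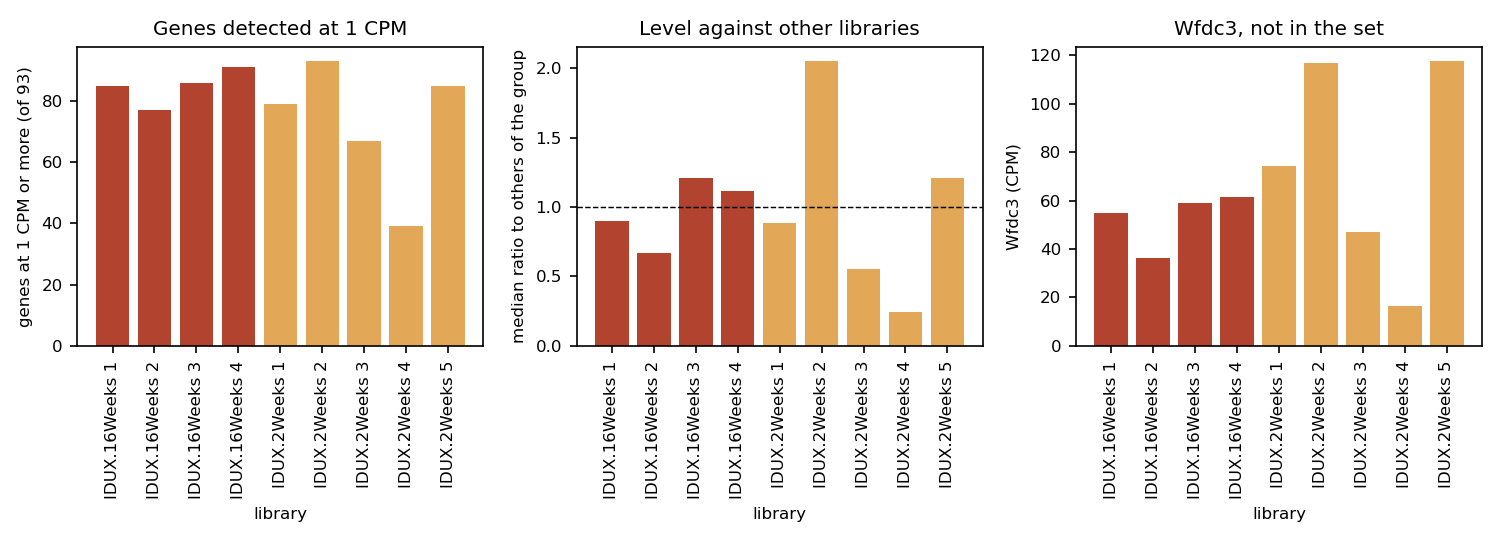
Bars for each DUX4 whole-muscle library, 16 weeks left (red) and 2 weeks right (orange), give the number of the 93 genes at 1 CPM or more, the median ratio of the set to the mean of the group's other libraries, and the CPM of Wfdc3. Replicate 4 of IDUX.2Weeks is lowest in all 3 panels, at 39 genes, 0.240 and 16.3 CPM.

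The 16-week libraries were more alike. Their median ratios were 0.902, 0.669, 1.21 and 1.12 in replicates 1 to 4, and they held 85, 77, 86 and 91 genes at 1 CPM. Replicate 2, the lowest, was also the shallowest library, and Wfdc3 had 54.9, 36.1, 58.9 and 61.4 CPM in the 4 libraries. More than 50% of a gene's summed level came from 1 library for 5 genes at 16 weeks and 14 genes at 2 weeks. The 2-week libraries also fall into 2 sets by Hoxd8, a gene that marks position along the body. Hoxd8 had 60.0 to 72.7 CPM in replicates 1 to 3 and 4.22 and 4.62 CPM in replicates 4 and 5 of IDUX.2Weeks, beside 45.5 to 68.0 CPM in replicates 1 to 3 and 3.82 and 4.61 CPM in replicates 4 and 5 of WT.2Weeks. Of the 93 genes, 73 averaged at least 1 CPM in each set, and 20 were under 1 CPM in replicates 4 and 5. In replicates 1 to 3 the number under 1 CPM was 0. The level in replicates 4 and 5 was 0.680 times that in replicates 1 to 3 (median over genes). Replicates 4 and 5 were unlike, with median ratios of 0.240 and 1.21 to the other libraries of their group. The limits used the mean of these same libraries, so these values only describe the set.

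Whether the set differed between the times was tested between the DUX4 groups, in a fit over all 18 whole-muscle libraries. By edgeR's quasi-likelihood test with Benjamini-Hochberg adjustment 7 of the 93 genes differed between 16 and 2 weeks at an adjusted p under 0.05 (7.53%), while 7.25% of all 15396 genes tested did so. Of the 7, 5 were higher at 16 weeks and 2 were lower, where 4.83% and 2.42% of all genes were called in these directions. The median log2 difference was 0.17 over the set and -0.01 over all genes, and 52 genes had a higher and 41 a lower estimate at 16 weeks. By this test the share called was close to that of all genes, and by others it was higher. DESeq2 called 17 of the set (18.3%) and 10.4% of all genes, and limma voom called 31 (33.3%) and 14.3% of all genes. An unadjusted p under 0.05 by edgeR was reached by 32 of the set (34.4%) and by 21.1% of all genes.

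Cyp4f14 had the lowest adjusted p of the 7, with 9.04, 5.93, 7.72 and 12.7 CPM in IDUX.16Weeks and 1.5, 2.2, 1.56, 0.214 and 1.95 CPM in IDUX.2Weeks. All 4 late libraries were above all 5 early ones, a log2 change of 2.55 ± 0.48 (SE), with an adjusted p of 0.00447 by edgeR's quasi-likelihood test. Ctsj was higher by 3.21 ± 0.79 on the log2 scale (adjusted p = 0.0281, edgeR), and all its 16-week libraries exceeded all its 2-week libraries. Clca4a rose by 1.64 ± 0.43 (adjusted p = 0.0382, edgeR) to 6.45, 4.94, 5.74 and 9.57 CPM in IDUX.16Weeks, against 1.64, 2.63, 2.33, 1.33 and 2.4 CPM in IDUX.2Weeks. Bpifb1 had 9.87, 4.78, 6.48 and 11 CPM in IDUX.16Weeks and 1.17, 3.91, 1.67, 1.28 and 4.57 CPM in IDUX.2Weeks, a log2 change of 1.61 ± 0.47 (adjusted p = 0.0461, edgeR). Gpr12 had 4.18, 2.74, 2.89 and 2.94 CPM in IDUX.16Weeks and 0.78, 1.87, 0.822, 0.993 and 1.31 CPM in IDUX.2Weeks, a log2 change of 1.45 ± 0.33 (adjusted p = 0.029, edgeR). For these 3 genes the lowest late library was above the highest early one.

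The 2 genes called lower were the clone 6030408B16Rik and Gm11543. 6030408B16Rik had 1.69, 1.15, 1.95 and 1.8 CPM in IDUX.16Weeks and 4.04, 5.92, 2.7, 3.69 and 6.2 CPM in IDUX.2Weeks, with no overlap and a log2 change of -1.49 ± 0.31 (adjusted p = 0.00791, edgeR). Gm11543 changed by -1.36 ± 0.38 (adjusted p = 0.0407, edgeR), and its near copy Tmem92, with a log2 difference of -1.17, had an adjusted p of 0.102 (edgeR). Klk1, Dnah10 and Eomes differed in mean by as much or more, with log2 values of 2.74, 1.72 and -2.12, and were not called (adjusted p = 0.105, 0.0746 and 0.0923, edgeR).

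**Figure D4:**
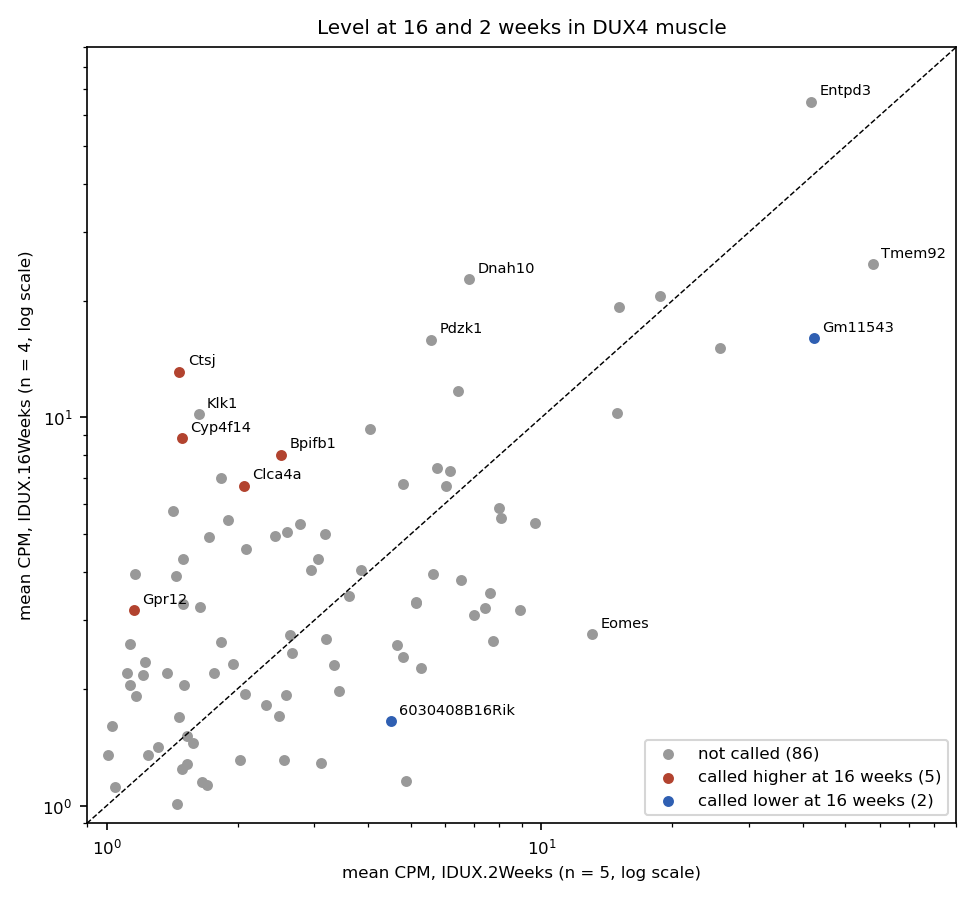
Mean CPM in IDUX.16Weeks (vertical, n = 4) against IDUX.2Weeks (horizontal, n = 5) for the 93 genes, both axes on a log scale, with a dashed line of equal level. The 5 genes called higher at 16 weeks are red, the 2 called lower are blue and the other 86 are grey.

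By role, the epithelial genes had the highest median log2 difference of any group of more than 2 genes, at 1.52, with 7 of 7 estimates above 0 and 1 call. The proteases were higher in both cases with 1 call, and 8 of 10 channels and transporters were higher with 1 call. Among gene regulators 4 of 9 were higher, and among predicted genes and clones 6 of 17, with 2 calls lower. The groups were formed after the values had been seen and were not tested as groups, so these counts and medians only describe them. Leaving out 1 library at a time gave 2 to 9 calls, and Cyp4f14 and 6030408B16Rik were called in each of the 9 refits. Clca4a, Gpr12, Bpifb1, Gm11543 and Ctsj lost their calls in 9, 8, 7, 6 and 5 of them. Without the low-count filter edgeR called 3 (3.23%), where 2.99% of all genes were called. The count fell to 2 without replicate 1 of IDUX.2Weeks or replicate 1 or 3 of IDUX.16Weeks, to 3 without replicate 3 of IDUX.2Weeks or replicate 4 of IDUX.16Weeks, and to 4 without replicate 2 of IDUX.16Weeks. Within the 2 sets of early libraries, it was 5 with replicates 1 to 3 of IDUX.2Weeks alone and 2 with replicates 4 and 5 alone. With these sets as a block, 14 were called (15.1%), the 7 among them, where 9.82% of all genes were called, in a fit added after the data had been seen. Cyp4f14 was not called with replicates 4 and 5 alone (adjusted p = 0.0819, edgeR), and 6030408B16Rik was not called with replicates 1 to 3 alone (adjusted p = 0.0554, edgeR).

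The sorted cells show which of these genes endothelial cells and FAPs held after sorting. Whole muscle and sorted cells were made with different library kits, so their levels are only set side by side. Of the 93 genes, 63 averaged under 1 CPM in all 4 sorted groups, 24 of these under 0.2 CPM, and 41 had enough counts to be tested. Tmem92 averaged 0.110 CPM in CD31DUX, 0.206 in CD31WT, 0.154 in PDGDUX and 0.0967 in PDGWT. Gpr12, Clca4a and Ctsj were at 0 in every sorted group. In all, 22 of the genes that were nearly silent in WT whole muscle averaged at least 1 CPM in WT sorted cells, and 8 more reached 1 CPM in DUX4 sorted cells only.

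Upp1 was the clearest case of a gene nearly silent in WT muscle but present in CD31-sorted WT cells. It had 66.2, 63.3, 77.8 and 101 CPM in CD31DUX and 82.9, 64.8 and 77.5 CPM in CD31WT, and 0.896, 1.91, 3.81 and 5.03 CPM in PDGDUX and 1.95, 2.36 and 7.92 CPM in PDGWT. Levels in the CD31 libraries thus did not separate by genotype (log2 difference 0.02 ± 0.44, adjusted p = 0.992, edgeR), while both FAP groups were lower. Endothelial markers summed to 163 to 341 CPM in WT.16Weeks and 313 to 536 CPM in WT.2Weeks, against 4607 to 5370 CPM in CD31WT. Upp1 had 0 to 0.378 CPM in the same WT whole-muscle libraries. Why Upp1 was so low there beside these markers was not tested. Nanos1 (7.6 ± 2.74 CPM in CD31DUX, 9.66 ± 8.03 in CD31WT) and Rnf227 (3.22 ± 0.765 in CD31DUX, 7.15 ± 2.91 in CD31WT) were also held by CD31-sorted cells of both genotypes (SD, n = 4 and 3).

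Between FAPs and endothelial cells 12 of the 41 genes differed in WT, 6 higher and 6 lower in FAPs, where 31.1% of all 17008 genes tested did so (16.7% higher, 14.5% lower). Higher in PDGWT than in CD31WT were 6030408B16Rik, Fam84a, Kcng1, Lpar3, Kcnd3 and Hydin, and lower were Upp1, Aadac, Pdzk1, Rd3, Pkp3 and Rnf227. 6030408B16Rik had 9.19, 6.84 and 8.14 CPM in PDGWT and 0.833, 0.871 and 1.44 CPM in CD31WT (log2 difference 3.24 ± 0.71, adjusted p = 0.00222, edgeR). Pdzk1 had 0, 0.165 and 0.0601 CPM in PDGWT and 7.81, 4.55 and 3.29 CPM in CD31WT (log2 difference -5.68 ± 1.76, adjusted p = 0.0211, edgeR). The groups did not overlap in either case. With DUX4, 9 genes differed, 2 higher and 7 lower in FAPs, against 33.7% of all genes (16.4% higher, 17.3% lower). Upp1, Pkp3, Rd3, Nfe2, Nanos1, Cck and Kcnb2 were called lower in PDGDUX than in CD31DUX, and Kcng1 and 6030408B16Rik higher. Kcnb2 had 0 counts in PDGDUX and 16 in CD31DUX. Its CD31DUX mean of 0.223 CPM was under the mean floor of PDGDUX, 0.246 CPM, so no size of fall is given. The groups overlapped for Cck, Kcng1 and 6030408B16Rik. Kcng1, Nanos1, 6030408B16Rik, Rd3 and Kcnb2 lost their calls in 6, 5, 5, 3 and 1 of 8 refits without 1 library. Leaving out PDGWT replicate 1 lowered the WT count to 7.

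DUX4 against WT called 4 of the 41 genes in endothelial cells, 3 higher and 1 lower, where 5.07% of all genes were called (3.72% higher, 1.35% lower). Dcstamp had 3.44, 2.98, 2.11 and 3.97 CPM in CD31DUX and no count in any CD31WT library. Every CD31DUX library was far above the floor of 3 counts, and Dcstamp was at least 16.7-fold higher (adjusted p = 0.0107, edgeR). Lpar3 had 3.27, 1.5, 0.449 and 3.51 CPM in CD31DUX and no count in CD31WT, at least 11.7-fold higher (adjusted p = 0.0132, edgeR). Replicate 3 was the lowest of the 4 for Lpar3, still above 0. Kcng1 had 0.573, 0.775, 0.444 and 0.726 CPM in CD31DUX and 0, 0.0629 and 0 CPM in CD31WT, that is 45 counts against 1 count in all (adjusted p = 0.0421, edgeR). The ratio of these summed counts, scaled to the totals, was 30.5, with an exact 95% interval of 5.21 to 1232 for counting error only. Aadac went the other way, with no count in any CD31DUX library and 5.8, 1.83 and 2.18 CPM in CD31WT, at least 19.2-fold lower (adjusted p = 0.00721, edgeR). In DUX4 whole muscle Aadac was among the most abundant of the set.

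In FAPs 3 of the 41 genes were called, 1 higher and 2 lower, where 3% of all genes were called (1.23% higher, 1.77% lower). Dcstamp had 0, 1.36, 0.745 and 0.874 CPM in PDGDUX and no count in PDGWT, at least 4.45-fold higher (adjusted p = 0.0497, edgeR). One PDGDUX library had no count of it, so the groups overlapped. Kcnb2 had no count in PDGDUX and 3.42, 0.863 and 3.23 CPM in PDGWT, at least 10.2-fold lower (adjusted p = 0.00614, edgeR). Fam84a had 0.407, 0, 0 and 0.291 CPM in PDGDUX and 10.6, 2.36 and 8.55 CPM in PDGWT, a log2 difference of -5.20 ± 1.33 (adjusted p = 0.0467, edgeR). Fam84a lost its call in each of the 7 refits without 1 library, and Dcstamp in 6 of the 7. Kcnb2 and Fam84a were thus lower with DUX4 in sorted FAPs and present with DUX4 in whole muscle, with no overlap between the sorted groups.

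**Figure D5:**
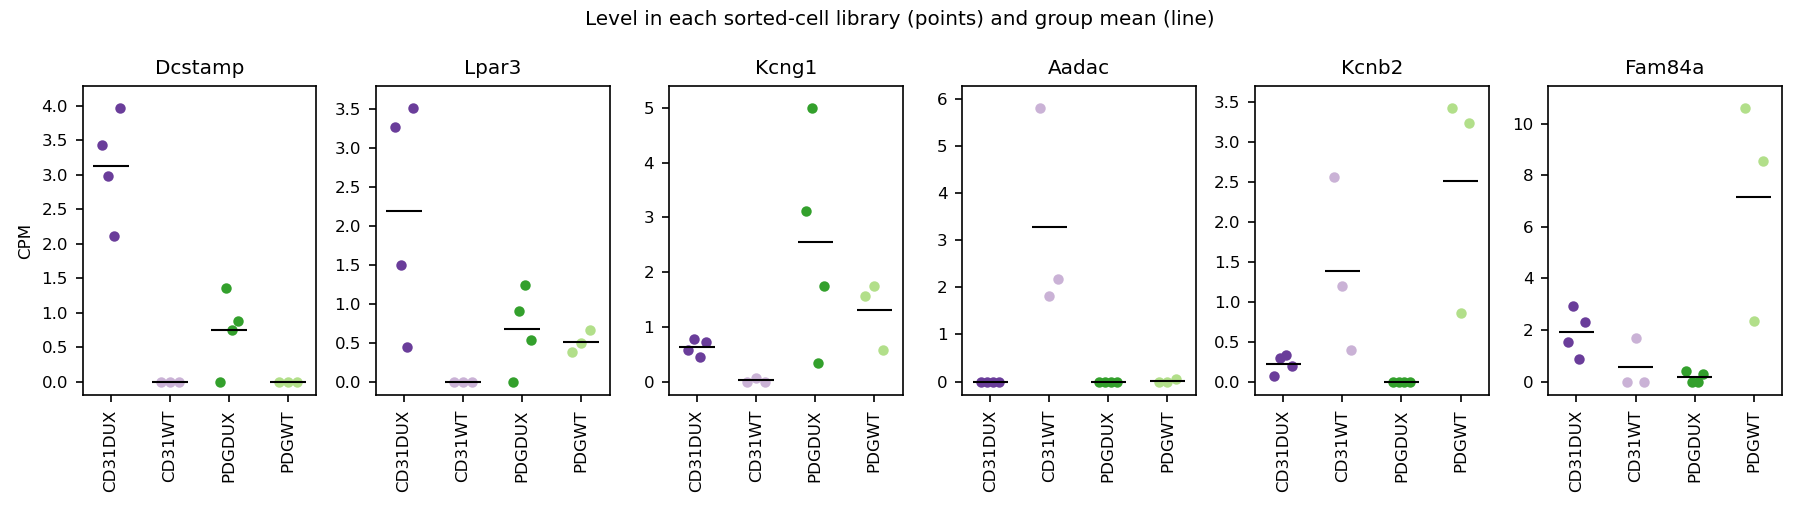
CPM of the 6 genes called between DUX4 and WT in a sorted cell type. Points are libraries and lines group means, in the order CD31DUX, CD31WT, PDGDUX, PDGWT. Dcstamp and Lpar3 are at 0 in CD31WT, Aadac is at 0 in CD31DUX and Kcnb2 is at 0 in PDGDUX.

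Markers of other cells differed between some of these groups. Macrophage markers summed to 679 to 1327 CPM in CD31DUX and 82.3 to 801 CPM in CD31WT, and to 49.9 to 241 CPM in PDGDUX and 9.86 to 130 CPM in PDGWT, with 0 of 8 called in either comparison. Each of the 8, Csf1r and Adgre1 included, averaged above 0 in all 4 groups, and their part in the Dcstamp result was not tested. FAP markers were higher in CD31DUX than in CD31WT for 6 of 8. Lpar3 and Kcng1 were also higher in WT FAPs than in WT endothelial cells, and the part of FAP RNA in their rise was not tested. Lpar3 averaged 0.671 ± 0.533 CPM in PDGDUX and 2.18 ± 1.46 CPM in CD31DUX (SD, n = 4 each), and this difference did not pass the threshold (adjusted p = 0.34, edgeR). Endothelial markers summed to 79.5 to 141 CPM in PDGDUX and 200 to 246 CPM in PDGWT, with 3 of 8 lower, beside the falls of Kcnb2 and Fam84a. Satellite cell markers also summed to less, at 10.2 to 17 CPM in PDGDUX and 31.3 to 46.9 CPM in PDGWT, with 3 of 6 lower (Chrdl2, Megf10 and Des). Des made most of these sums, with means of 9.27 CPM in PDGDUX and 30.6 CPM in PDGWT. Pax7 and Cdh15 had log2 differences of 0.73 and 1.02 and Myf5 of -1.11, and these were not called. Schwann cell markers summed to 12.4 to 21.9 CPM in PDGDUX and 37.3 to 79.9 CPM in PDGWT, with 2 of 6 lower. Beside the fall of Aadac in endothelial cells, mural cell markers summed to 355 to 555 CPM in CD31DUX and 818 to 1166 CPM in CD31WT, with 1 of 7 lower. Schwann cell markers summed to 109 to 144 CPM in CD31DUX and 177 to 268 CPM in CD31WT, with 1 of 6 lower. The part of these cells in the falls was not tested. Myofibre markers summed to 457 to 1329 CPM in CD31DUX and 134 to 330 CPM in CD31WT, with 1 of 8 higher. Markers of regenerating fibres summed to 60.9 to 90.6 CPM in CD31DUX and 35.98 to 39.9 CPM in CD31WT. Of the 6 tested, 3 were higher (Sln, Myog and Actc1) and 0 lower. In FAPs their sums averaged 12.8 CPM in PDGDUX and 15.3 CPM in PDGWT, with 1 of 6 higher (Sln) and 0 lower. Ncam1 made the largest part of these sums in both groups, and its log2 difference was -1.21. The other tested markers, Sln, Myog, Actc1, Myh3 and Chrna1, had log2 differences of 4.52, 5.62, 2.70, 1.87 and 0.92. The lower sum in PDGDUX thus came from Ncam1. The part of muscle fibre RNA in the rises of Dcstamp, Lpar3 and Kcng1 was not tested.

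Whether the DUX4 difference itself differed between FAPs and endothelial cells was tested as an interaction. None of the 41 genes passed by edgeR's quasi-likelihood test (2.25% of all genes did, 0.553% upward and 1.7% downward), 6 had an unadjusted p under 0.05 (14.6%, against 13.9% of all genes). DESeq2 called 3 of the 40 to which it gave an adjusted p (7.5%, against 4.86% of all), and limma voom called 2 of the 41 (4.88%, against 2.05%). Slamf7 had 14.3, 14.8, 16.8 and 14.3 CPM in CD31DUX and 7.6, 0 and 0 CPM in CD31WT, where 1 WT library was high and the others at 0 (log2 difference 2.53, adjusted p = 0.481, edgeR). That library, CD31WT replicate 1, also held 801 CPM of macrophage markers, against 82.3 and 149 CPM in the other CD31WT libraries, and 132 CPM of neutrophil markers, against 3.2 and 28.7 CPM. Their part in the Slamf7 level was not tested. Entpd3 had 0, 0.546, 2.07 and 1.24 CPM in PDGDUX and 0, 0 and 0.0528 CPM in PDGWT (adjusted p = 0.228, edgeR). Without PDGDUX replicate 2, 3 or 4, or without any 1 PDGWT replicate, the FAP count fell to 1, and Kcnb2 kept its call in all 7 refits. In the endothelial comparison Dcstamp, Lpar3 and Aadac kept theirs in all 7, and Kcng1 lost it in 6 of 7. Lpar3 did not pass with limma voom (adjusted p = 0.11), and a stricter minimum of 30 counts left 1 endothelial call among 14 of the set tested, where 6.1% of all genes were called.

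Other genes known to answer to DUX4 or to mouse Dux give the setting. A list of 6 genes taken to be DUX4-responsive in mouse muscle, put together with earlier results of these data known (Wfdc3, Sord, Ilvbl, Slc15a2, Agtrap and Serpinb6c) had all 6 higher in DUX4 whole muscle at both times by edgeR's quasi-likelihood test, where 14.1% of all genes were called higher at 16 weeks and 11.2% at 2 weeks. These counts restate how the list was chosen, since Wfdc3 and Serpinb6c also met the limits of the set, and nothing is read from them. The list's median log2 change was 2.12 at 16 weeks and 2.63 at 2 weeks, against 0.01 and -0.01 for all genes. None of the 6 was called in sorted endothelial cells or FAPs. A list of cleavage-stage genes that mouse Dux is known to switch on gave 19 with a match in the tables, of which none was in the set and 1, Usp17la, had enough counts to be tested. Usp17la had a log2 difference of 1.73 ± 0.74 at 16 weeks (adjusted p = 0.0925, edgeR) and of -0.66 ± 0.66 at 2 weeks (adjusted p = 0.54, edgeR). The other 18, of the Zscan4, Tdpoz, Tcstv and Usp17l families with Zfp352 and Duxf3, averaged at most 0.873 CPM in any group. Of 20 germline genes none was in the set and 3 were tested, of which the meiotic cohesin gene Rec8 was higher in DUX4 muscle by 3.59 ± 0.80 at 16 weeks (adjusted p = 0.0037, edgeR) and 2.10 ± 0.55 at 2 weeks (adjusted p = 0.0132, edgeR).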

How the data were processed

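The data are RNA-seq libraries of 50-base paired ends. Whole-muscle libraries were made from 500 ng RNA with a KAPA mRNA kit, and libraries of 75000 sorted cells with low-input cDNA synthesis and Nextera XT, per the labels' protocols. The authors deposited estimated counts per Ensembl gene and library, and CASAVA 1.8, Salmon 0.6.0 and mm10 are named per the submitters' processing notes. How transcripts were summed to genes and whether strand was used is stated in no label or file header. Estimated counts spread reads among near-identical copies, so values of copied genes are uncertain.

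CPM is count divided by the library's sum, times 1000000. For tests the estimated counts were rounded to whole numbers, genes were filtered by filterByExpr (minimum count 10), TMM factors were used, and edgeR 4.0.16 (R 4.3.3) fitted its quasi-likelihood test with 1 mean per group, over the 18 whole-muscle libraries and the 14 sorted libraries separately. P-values were Benjamini-Hochberg adjusted over all genes tested, with 0.05 as the threshold. The code was tested on simulated data. Standard errors are those of the log2 difference. Alternatives were DESeq2 1.42.0, limma 3.58.1 voom, other scaling and filters, fits of the compared groups alone, the sets of 2-week libraries as a block and refits without each library. Near copies were found with blastn 2.17.0 (at least 90% identity over at least 30% of the transcript). A group at 0 was set to 3 counts per library for a bound, and such bounds and intervals cover counting error only.

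Members and gene lists were chosen with earlier results of these data known. Named genes were the 14 members, leaving out predicted genes and clones, whose lowest DUX4 library was highest, the called members with the largest changes (up to 6 in each direction for 16 against 2 weeks and for DUX4 against WT, up to 4 for FAPs against endothelial cells), the 3 genes on each side of each limit, and the lists of DUX4-responsive and of Dux-driven early-embryo genes. Other genes, and the groups by role, were named after their values were seen. Replicates are numbered in deposit order. No 2 libraries held identical values.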

Additional observations from a re-analysis of the deposited data

Results flagged for a closer look

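For the named genes, 75 groups of 4 or 5 libraries were searched for a library far from its group (Dixon's criterion at the 95% level), which chance alone meets in about 1 in 20 groups, and 5 met it. Tmem92 was 156 CPM in replicate 2 of IDUX.2Weeks, where the other 4 libraries had 24.7 to 49.4 CPM. Kcnb2 was 18.7 CPM in the same library, with 3.68 to 7.85 CPM in the others. That library was the highest of its group for 63 of the 93 genes, which the choice by group mean partly favoured. Lmntd2 was 9.54 CPM in replicate 3 of IDUX.16Weeks, with 5.49 to 5.96 CPM in the others. Gpr12 was 4.18 CPM in replicate 1 of IDUX.16Weeks, with 2.74 to 2.94 CPM in the others. Nfe2 was 3.26 CPM in replicate 1 of CD31DUX, with 1.45 to 1.70 CPM in the others.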

How the results depend on the processing

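Membership of the set depended on its limits and on the summary used. A minimum of 2 CPM in both DUX4 groups left 46 genes in place of 93, a WT limit of 0.1 CPM left 63, medians in place of means gave 116 (80 shared), TMM-scaled CPM gave 80, and the 2-week replicates 1 to 3 or 4 and 5 alone gave 103 (90 shared) and 85 (72 shared). Leaving out 1 library gave 76 (without IDUX.2Weeks replicate 2) to 99.

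The comparison of 16 with 2 weeks called 7 of the set (7.53%, against 7.25% of all genes), 17 with DESeq2 (18.3%, against 10.4%), 31 with limma voom (33.3%, against 14.3%), 3 without the low-count filter (3.23%, against 2.99%), 14 with the sets of 2-week libraries as a block (15.1%, against 9.82%), 5 with replicates 1 to 3 of IDUX.2Weeks, 2 with replicates 4 and 5, and 2 to 9 without 1 library. How many genes differ between the times, and whether their share is near that of all genes, thus depends on the method, and the cause was not tested.

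In sorted cells, DUX4 against WT called 3 of 41 in FAPs (3% of all genes), and 1 to 2 without 1 library. In endothelial cells it called 4 of 41 (5.07% of all genes), and 3 to 5 without 1 library. A stricter minimum of 30 counts left 1 endothelial call among 14 of the set tested (7.14%, against 6.1% of all genes). FAPs against endothelial cells in WT gave 12 calls of 41, where 31.1% of all genes were called. Under that minimum it gave 6 of 14 (42.9%, against 37% of all genes). It gave 6 when only these groups were fitted and 7 to 11 without 1 library. With DUX4 the comparison gave 9 calls of 41 (33.7% of all genes), and 6 to 8 without 1 library. Shares of all genes were not taken for fits of the compared groups alone or without 1 library. The interaction gave 0 calls (2.25% of all genes), 3 with DESeq2 (7.5%, against 4.86%), 2 with limma voom (4.88%, against 2.05%), and 0 to 1 without 1 library. The 6 DUX4-responsive genes were called at both times in 5 to 6 cases without 1 library, in fits added after the data had been seen.

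For 20 named results, 176 of 262 alternative values stayed on their side of the threshold and 86 lost the call in the same direction, and none turned direction. No paired analysis was possible because the labels give the groups no shared replicate numbers. The block of sets named above was read from Hoxd8 and added after the data had been seen, and with it all 6 DUX4-responsive genes were still called at 2 weeks. Most of the set had few counts, and 52 of the 93 could not be tested in sorted cells at this depth.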
